A study of Homo sapiens with 6 samples.

Results

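The SMAD family carries signals of the TGF-β, activin and BMP receptors to the nucleus, and SKI and SKIL are corepressors that act on it. The 10 genes described here are SMAD1, SMAD2, SMAD3, SMAD4, SMAD5, SMAD6, SMAD7, SMAD9, SKI and SKIL, which make up the human SMAD genes together with the SKI proto-oncogene and its close relative that encodes SnoN. Members were taken as the rows whose gene symbol equals one of these names. This match used no measured value, although the 10 genes were chosen with earlier results of these data known. All 10 were found among the 58735 rows of the count table, and all 10 passed the filter on low counts that left 15935 genes for testing. RNA was sequenced from RD cells, an established cell line of embryonal rhabdomyosarcoma (ERMS), a tumor of cells that resemble muscle precursors and fail to mature. One group of 3 samples had been transduced with lentivirus carrying a scrambled shRNA and is called control, and the other group of 3 samples had received lentivirus with TAK1 shRNA 1 and is called TAK1 knockdown. All 6 samples thus share the parental line and the lentiviral vector, and a single shRNA sequence stands for the knockdown. The labels number the samples within each group without saying that they are separate cultures, so p-values measure the spread between these samples, which may be partly technical.

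The receptors of TGF-β and activin phosphorylate SMAD2 and SMAD3, and those of BMP ligands phosphorylate SMAD1, SMAD5 and SMAD9. The phosphorylated SMADs bind the common partner SMAD4 and enter the nucleus, where SKI and SKIL can hold the complex in a repressed state by recruiting histone deacetylases. SMAD6 and SMAD7 are inhibitory SMADs whose genes are induced by the same pathways and whose proteins block the receptors and the receptor-regulated SMADs. TAK1, the product of MAP3K7, is a kinase activated downstream of TGF-β and BMP receptors by a route that runs beside the SMADs. In muscle, signaling of myostatin and activins through SMAD2 and SMAD3 restrains growth and differentiation.

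SMAD6 and SMAD7 are both inhibitory SMADs. SMAD6 fell, whereas SMAD7 did not pass the test and its groups overlapped. SMAD1 and SMAD5 both fell. The bases before the start of these 4 genes are shown for comparison. Each window holds the 250 bases upstream of the RefSeq start in GRCh38.p14, and windows were matched by symbol for 9 of the 10 genes. A gene with several RefSeq starts is given by the one at the start of its canonical transcript. Only that window is reported for SMAD1, SMAD2, SMAD3 and SMAD7, which have 5, 2, 5 and 3 RefSeq windows. Capitals mark the SMAD palindrome GTCTAGAC, the BMP SMAD element GGCGCC and the short SMAD element CAGAC, which were searched on both strands. The palindrome is a sequence bound by SMAD3 and SMAD4, and GGCGCC is a GC-rich element bound by BMP-regulated SMADs. CAGAC is a shorter SMAD-binding element that shares the letters AGAC with the palindrome but does not occur in it in full on either strand. The SMAD6 window is chr15:66701986-66702235 on the plus strand, the SMAD7 window is chr18:48950966-48951215 on the minus strand, the SMAD1 window is chr4:145481603-145481852 on the plus strand and the SMAD5 window is chr5:136132595-136132844 on the plus strand.
SMAD6: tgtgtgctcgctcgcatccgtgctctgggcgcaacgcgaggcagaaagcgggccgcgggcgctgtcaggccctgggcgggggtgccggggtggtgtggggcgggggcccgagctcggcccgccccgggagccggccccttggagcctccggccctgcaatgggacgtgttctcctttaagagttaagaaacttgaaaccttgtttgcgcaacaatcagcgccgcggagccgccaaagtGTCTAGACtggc
SMAD7: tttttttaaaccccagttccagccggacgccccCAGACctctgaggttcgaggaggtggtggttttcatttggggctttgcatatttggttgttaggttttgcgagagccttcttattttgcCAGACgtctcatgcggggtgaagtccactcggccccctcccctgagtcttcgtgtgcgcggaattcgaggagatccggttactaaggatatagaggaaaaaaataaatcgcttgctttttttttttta
SMAD1: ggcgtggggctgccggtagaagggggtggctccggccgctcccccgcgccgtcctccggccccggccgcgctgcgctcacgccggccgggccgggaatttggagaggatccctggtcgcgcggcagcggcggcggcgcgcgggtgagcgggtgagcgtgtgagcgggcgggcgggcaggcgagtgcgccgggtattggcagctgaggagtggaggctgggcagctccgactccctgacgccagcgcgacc
SMAD5: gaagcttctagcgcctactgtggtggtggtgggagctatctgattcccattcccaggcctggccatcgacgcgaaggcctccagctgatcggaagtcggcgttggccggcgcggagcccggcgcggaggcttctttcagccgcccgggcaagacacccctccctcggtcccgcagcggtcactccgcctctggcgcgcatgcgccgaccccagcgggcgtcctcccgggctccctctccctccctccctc

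The SMAD6 window held 1 GTCTAGAC, whose first base lies 12 bases before the start, and the reported windows of the other 8 matched members held none. That absence holds for these 250 bases only. The further RefSeq windows of SMAD1, SMAD2, SMAD3 and SMAD7 are not described. Over 35116 RefSeq windows of the same length, 64 held this palindrome (0.182%). The SMAD7 window held 2 matches to CAGAC, which 38.0% of all windows contain, and the SMAD1 and SMAD5 windows held none of the 3 sequences. The SKIL window held CAGAC once. The element GGCGCC, present in 16.4% of all windows, was found once in the windows of SMAD2, SMAD4 and SKIL and in 2 places in that of SMAD3. The share of G and C was 78.0% for SMAD1, 70.4% for SMAD5, 68.0% for SMAD6 and 48.0% for SMAD7. These matches describe letters of the reference, since binding was not measured in these samples.

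The targeted gene was examined first. MAP3K7 was counted at 77.9, 76.5 and 77.6 CPM, counts scaled to the normalized library size, in the control samples and at 30.5, 33.6 and 29.9 CPM in the TAK1 knockdown samples. It was lower in all 3 knockdown samples, with a log2 fold change of -1.30 (SE 0.062, adjusted p = 4.45e-14 by the quasi-likelihood test of edgeR, adjusted by Benjamini and Hochberg over all tested genes). Total counts per sample ran from 28839898 to 34469323. A gene was called changed where its adjusted p was below 0.05 and its log2 fold change was 0.25 or more in size. These thresholds follow the study's methods. By this rule 3684 genes (23.1%) were called, with 1879 higher (11.8%) and 1805 lower (11.3%) in TAK1 knockdown cells. Scaling by library size alone gave 2376 higher and 1404 lower. The median log2 fold change of all tested genes was 0.018.

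The myoblast identity of the line was checked with 11 markers, whose summed level was 2085 to 2116 CPM in control and 2031 to 2165 CPM in TAK1 knockdown samples. MYF5 had no count in any sample, and of the 9 markers tested 4 were higher (CHRNG, MYMK, MYOD1 and MYOG) and 1 was lower (CHRNA1). The summed level of 11 markers of epithelial, endothelial and blood cells was 0.745 to 1.02 CPM in control and 0.410 to 1.05 CPM in knockdown samples, with CD3E, CDH1, CDH5 and HBB at 0 in all 6. In bulk RNA, fewer cells of a kind and less RNA per cell cannot be told apart. The part of the shift in muscle markers in the values of the SMAD genes was not tested.

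Of the 10 SMAD and SKI genes, 3 were lower in TAK1 knockdown cells (SMAD1, SMAD5 and SMAD6), none was higher and 7 were not called. Of all tested genes, 11.3% were lower, 11.8% higher and 23.1% called in either direction. The 3 called lower are both abundantly counted BMP-regulated SMADs and the inhibitory SMAD that acts mainly on the BMP branch. Negative values were also fitted for SMAD2 (-0.18), SMAD4 (-0.17) and SMAD9 (-0.11), which were not called. An adjusted p under 0.05 without regard to the size of the change was reached by 4 members, the fourth being SMAD2, against 33.3% of all genes. The ranges of the 2 groups did not overlap for 6 members, SMAD1 to SMAD6 in numerical order, against 43.9% of all genes. The median log2 fold change over the 10 genes was -0.14 and ran from -0.19 to -0.070 over the alternatives. The same 3 genes were called under each of 14 refits with another normalization, filter, test, replicate term or sample left out.

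**Figure D1:**
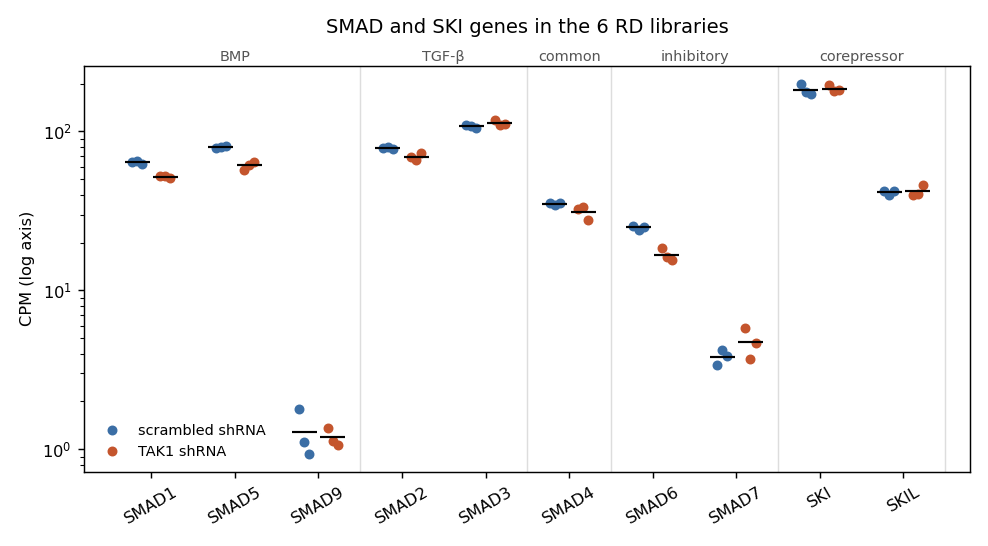
CPM of the 10 genes (log axis) in 3 control samples (scrambled shRNA, blue) and 3 TAK1 knockdown samples (orange), with 1 point per sample, the bar at the group mean, and genes grouped by role. The points of the groups do not overlap for SMAD1 to SMAD6 in numerical order, against 43.9% of all genes. The called genes SMAD1, SMAD5 and SMAD6 have means of 64.1 and 51.9, 79.9 and 61.1, and 24.9 and 16.8 CPM. For SKI and SKIL the points lie together.

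Among the BMP-regulated SMADs, SMAD5 had the lowest adjusted p. Its level was 78.9, 79.3 and 81.5 CPM in control samples and 57.4, 61.9 and 64.1 CPM in TAK1 knockdown samples. All 3 knockdown samples lay below all controls. The means were 79.9 ± 1.39 and 61.1 ± 3.42 CPM (SD, n = 3 each), a difference of -23.5%. The log2 fold change was -0.39 (95% interval -0.50 to -0.27, SE 0.056), with an adjusted p of 6.19e-06 by edgeR. SMAD1 was counted at 64.1, 65.5 and 62.7 CPM in controls and at 52.2, 52.5 and 51.0 CPM after knockdown. The knockdown samples again lay below every control, and they were close to each other. The SMAD1 means were 64.1 ± 1.44 and 51.9 ± 0.829 CPM, with a log2 fold change of -0.30 (95% interval -0.42 to -0.19, SE 0.056, adjusted p = 0.000134 by edgeR).

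SMAD9, which encodes the remaining BMP-regulated SMAD, was close to the limit of counting. It had 51, 35 and 29 counts in control samples and 40, 40 and 35 counts in knockdown samples, so counting error alone came to as much as 18.6% of a value. The 51 counts of control sample 1 have an exact Poisson 95% interval of 38.0 to 67.1, which covers counting error only. The log2 fold change of SMAD9 was -0.11 (95% interval -0.75 to 0.53, adjusted p = 0.829 by edgeR), and a difference of the size seen in SMAD1 or SMAD5 was not detectable at this depth. The groups overlapped, with control sample 1 the highest of the 6 samples, and without that sample the log2 fold change was 0.20.

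Of the SMADs that serve TGF-β and activin, SMAD2 passed the p threshold alone and SMAD3 passed neither. SMAD2 was counted at 78.2, 79.8 and 77.0 CPM in control samples and at 68.6, 65.8 and 73.0 CPM in TAK1 knockdown samples. The groups did not overlap, although the knockdown samples were more spread than the controls. The means of 78.3 ± 1.42 and 69.1 ± 3.65 CPM gave a log2 fold change of -0.18 (95% interval -0.29 to -0.067, adjusted p = 0.0129 by edgeR), which passed the p threshold and missed the fold threshold. The adjusted p of SMAD2 ran from 0.00402 to 0.0762 over the alternatives, and it was 0.0762 without control sample 2, 0.0672 without knockdown sample 2 and 0.0604 with scaling by library size alone. SMAD3 was counted at 110.1, 109 and 105 CPM in controls and at 119, 110.3 and 112 CPM in knockdown samples. The highest control and the lowest knockdown sample were nearly equal, and the log2 fold change of 0.07 (95% interval -0.029 to 0.18, adjusted p = 0.279 by edgeR) lay with its whole interval inside ±0.25.

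The common partner SMAD4 was counted at 35.3, 34.4 and 35.5 CPM in control samples and at 32.5, 33.3 and 27.7 CPM in TAK1 knockdown samples. Knockdown sample 3 was the lowest, and the other 2 knockdown samples lay just under the controls. The means were 35.0 ± 0.600 and 31.2 ± 3.07 CPM, and the log2 fold change of -0.17 (95% interval -0.32 to -0.017) had an adjusted p of 0.082 by edgeR. SMAD4 did not pass the test. Without knockdown sample 3 the value was -0.10 with an adjusted p of 0.312, and without knockdown sample 2 the adjusted p was 0.0309, still below the fold threshold. An overlapping annotated gene on the same strand, ENSG00000267699, covers 4.93% of the SMAD4 exon sequence, and its reads could not be separated from those of SMAD4.

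Of the inhibitory SMADs, SMAD6 fell and SMAD7 did not pass the test. SMAD6, which preferentially restrains BMP signaling, was counted at 25.5, 24.0 and 25.1 CPM in control samples and at 18.5, 16.3 and 15.5 CPM in TAK1 knockdown samples. Every knockdown sample was below every control, and the gap between the groups was wider than the range within either. The means of 24.9 ± 0.747 and 16.8 ± 1.54 CPM differ by -32.6%, and the log2 fold change of -0.57 (95% interval -0.74 to -0.40, SE 0.083, adjusted p = 6.21e-06 by edgeR) was the only one of the 10 beyond 0.5 in size. SMAD7, which acts on both branches and directs the ubiquitin ligases SMURF1 and SMURF2 to the receptors, was counted at 3.41, 4.19 and 3.86 CPM in controls and at 5.78, 3.71 and 4.63 CPM after knockdown. Knockdown sample 2 lay within the control range and the other 2 lay above it. With 97 to 169 counts per sample, SMAD7 had a log2 fold change of 0.29 (95% interval -0.061 to 0.64, adjusted p = 0.206 by edgeR). Without knockdown sample 1 the SMAD7 value was 0.12, and without knockdown sample 2 it was 0.44 with an adjusted p of 0.0505 by edgeR.

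The corepressors did not pass the test in either direction, and their intervals were narrow. SKI was counted at 198, 177 and 171 CPM in control samples and at 195, 178 and 183 CPM in TAK1 knockdown samples. The groups overlapped entirely, and the log2 fold change of SKI was 0.02 (95% interval -0.086 to 0.14, adjusted p = 0.770 by edgeR). SKIL was counted at 41.9, 40.0 and 42.4 CPM in controls and at 39.7, 40.2 and 45.8 CPM in knockdown samples. Here too the groups overlapped, with knockdown sample 3 the highest of the 6, and the log2 fold change was 0.02 (95% interval -0.12 to 0.16, adjusted p = 0.879 by edgeR). For SKI, SKIL and SMAD3 the interval excludes a change of 0.25 in either direction, whereas for SMAD7 and SMAD9 it does not.

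**Figure D2:**
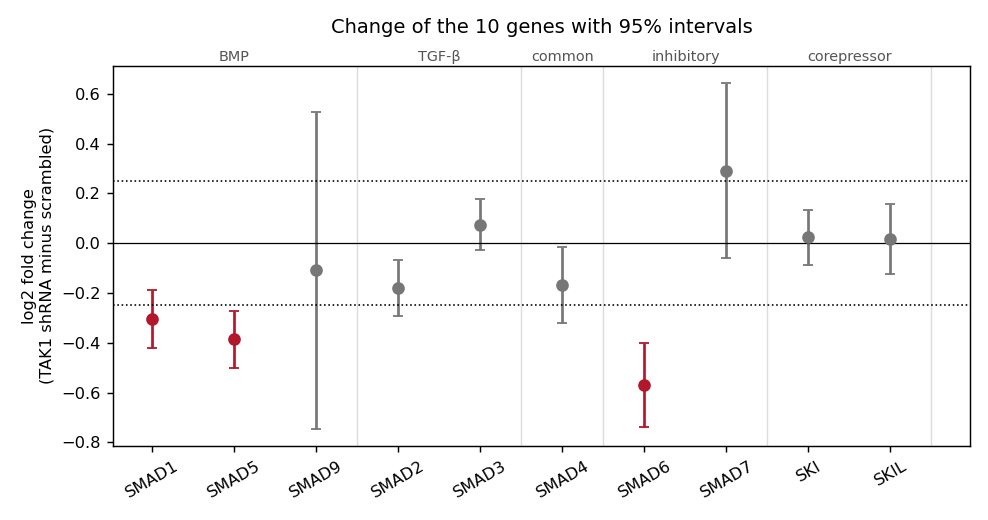
Log2 fold change (TAK1 knockdown minus control) of the 10 genes by edgeR, with 95% intervals, in which red marks genes called lower, grey marks genes not called and dotted lines mark ±0.25. SMAD6 is lowest at -0.57, SMAD5 and SMAD1 follow at -0.39 and -0.30, and the widest interval is that of SMAD9, from -0.75 to 0.53.

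The 5 receptor-regulated SMADs were also described as a pool. Their summed level was 333, 334 and 327 CPM in control samples and 298, 292 and 301 CPM in TAK1 knockdown samples, which did not overlap. SMAD1, SMAD5 and SMAD9 together summed to 145 ± 0.607 CPM in control and 114 ± 2.86 CPM in knockdown samples. Their part of the pool was 43.5%, 43.7% and 44.4% in controls and 37.2%, 39.6% and 38.6% after knockdown, a share of reads that is not corrected for gene length. The share was lower in every knockdown sample than in any control, and SMAD1 and SMAD5 were the members of the pool that had been called lower.

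Ratios between paired members were taken within each sample, so they do not depend on library scaling. For 3 samples against 3, the two-sided exact permutation test cannot give a p below 0.1, so none of the 5 ratios could reach 0.05. SMAD7 counts were 0.134, 0.174 and 0.154 of the SMAD6 counts in control samples and 0.312, 0.227 and 0.298 of them in TAK1 knockdown samples. The ratio was higher in every knockdown sample than in any control, with a difference of 0.85 on the log2 scale (exact permutation p = 0.1, adjusted p = 0.25 over the 5 ratios). The counts of SMAD3 were 1.41, 1.36 and 1.36 times those of SMAD2 in controls and 1.73, 1.68 and 1.53 times after knockdown. These groups did not overlap either, and the log2 difference was 0.26 (exact permutation p = 0.1, adjusted p = 0.25).

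Taken per kilobase, the other 3 ratios overlapped between the groups. The SMAD1 to SMAD5 ratio differed by 0.083 on the log2 scale (exact permutation p = 0.3, adjusted p = 0.5), and single samples ran from -0.030 to 0.074 in controls and from 0.019 to 0.21 after knockdown. The SKIL to SKI ratio differed by -0.013 (exact permutation p = 0.9), with a range of single samples from -2.58 to -2.28 when counts are taken per kilobase of exon. The ratio of SMAD6 and SMAD7 together to the 5 receptor-regulated SMADs, per kilobase, differed by -0.13 (exact permutation p = 0.4, adjusted p = 0.5), by -0.23 without knockdown sample 1 and by -0.069 without knockdown sample 2. When counts were not divided by length this ratio was 0.0867, 0.0844 and 0.0887 in controls and 0.0814, 0.0686 and 0.0671 after knockdown, which did not overlap and differed by -0.26 on the log2 scale.

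**Figure D3:**
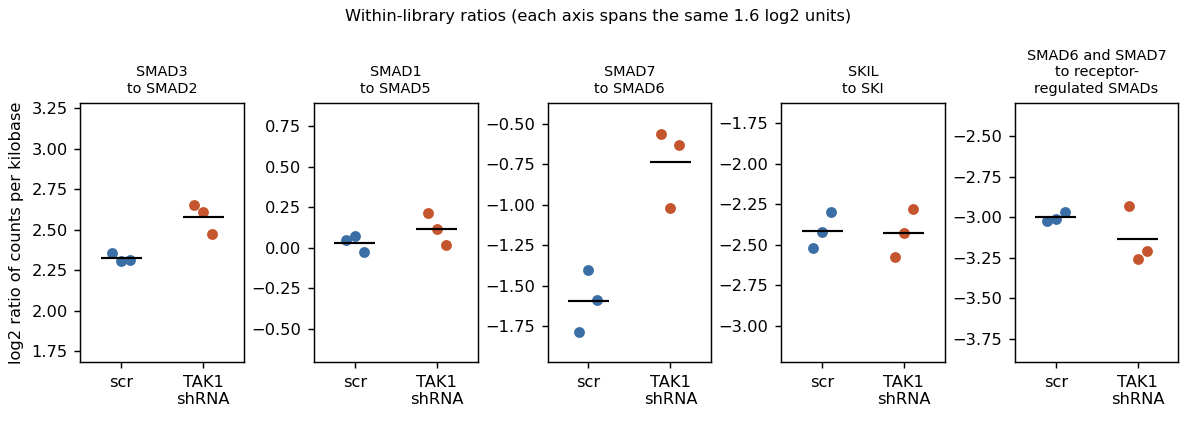
Log2 ratio of counts per kilobase of exon for 5 pairs or groups of SMAD and SKI genes within each sample (points), with bars at the group means for 3 control (scr, blue) and 3 TAK1 knockdown samples (orange) and an equal span of log2 units on every axis. The SMAD7 to SMAD6 ratio has means of -1.59 and -0.74 and the SMAD3 to SMAD2 ratio means of 2.33 and 2.58, each without overlap, while the SKIL to SKI ratio overlaps.

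Levels of different genes were compared per kilobase of exon (CPM per kb). In control samples SKI was highest at 27.3 ± 2.13 CPM per kb, followed by SMAD3 at 10.8 ± 0.261. SMAD1 at 9.04 ± 0.203 and SMAD5 at 8.84 ± 0.154 CPM per kb did not differ beyond their spread. SKIL at 5.10 ± 0.157, SMAD6 at 2.91 ± 0.0873, SMAD2 at 2.15 ± 0.0390, SMAD4 at 1.79 ± 0.0306, SMAD7 at 0.968 ± 0.0992 and SMAD9 at 0.215 ± 0.0758 CPM per kb followed without overlap between neighbors. SKI was thus the most and SMAD9 the least abundant of the 10 transcripts by this measure in both groups. In TAK1 knockdown samples SMAD6 at 1.96 ± 0.180 CPM per kb overlapped SMAD2 at 1.90 ± 0.10, and SMAD7 at 1.19 ± 0.263 overlapped SMAD4 at 1.59 ± 0.156.

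The order depends on the length assumed. The annotated exons of SMAD2 add up to 36426 bases, because its canonical transcript of 34626 bases ends in a very long last exon, whereas its coding sequence has 1401 bases. With the canonical coding length, an alternative chosen after seeing the data, SMAD3 at 84.6 ± 2.05 and SKI at 83.4 ± 6.51 CPM per kb overlapped in controls, and SMAD5 at 57.3 ± 0.999 overlapped SMAD2 at 55.9 ± 1.01. SMAD1 at 45.9, SMAD4 at 21.2, SKIL at 20.2, SMAD6 at 16.7, SMAD7 at 2.99 and SMAD9 at 0.915 CPM per kb followed in that order. The place of SMAD2 among the receptor-regulated SMADs is therefore set by the length used, while SMAD7 and SMAD9 were lowest with either length.

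In GRCh38 with GENCODE 44, SMAD6 lies at chr15:66702236-66782849 and SMAD3 at chr15:67063763-67195173, both on the plus strand and 280.9 kb apart, and SMAD6 was lower after knockdown whereas SMAD3 was not called. SMAD2 (chr18:47808957-47931146, minus strand), SMAD7 (chr18:48919853-48950965, minus strand) and SMAD4 (chr18:51028528-51085045, plus strand) lie on the same chromosome, with gaps of 988.7 and 2077.6 kb, and none of the 3 was called. SMAD1 lies at chr4:145481194-145559176 and SMAD5 at chr5:136132845-136188747, both on the plus strand. SMAD9 is at chr13:36844831-36920887 on the minus strand, SKI at chr1:2227388-2310213 and SKIL at chr3:170357342-170396835, both on the plus strand.

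The SMAD genes are related in sequence, so shared reads were examined. No stretch of 75 bases of the canonical SMAD3, SMAD5, SMAD6, SMAD7, SMAD9 or SKI transcript occurred in a transcript of another gene. For SMAD1, 10.4% of such stretches also lie in the antisense gene SMAD1-AS1, which had 1 count over the 6 samples. For SMAD4, 7.70% of the stretches also lie in ENSG00000267699, for SMAD2 0.339% lie in transcripts of other genes, and for SKIL 0.014% do. SMAD5-AS1, which overlaps 6.75% of the SMAD5 exon sequence, had 3 counts, and a further 1.98% is shared with 2 annotated genes on the same strand. The sources used here do not say whether strand was used in counting. Reads from the overlapping exon sequence of SMAD1 and SMAD5 therefore cannot be told apart from those of their antisense partners. This sequence is 5.3% of the SMAD1 exons and 6.75% of the SMAD5 exons. The exons of SMAD6 overlap no other annotated gene.

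The 3 genes whose profile over the 6 samples was nearest to that of SMAD5, among 9703 genes with at least 10 CPM, were TMCO1, HNRNPA3 and EIF2S1. The root mean square differences of their log2 values, each taken relative to the control mean, were 0.0122, 0.0146 and 0.0167. Their log2 fold changes of -0.40, -0.39 and -0.39 match the -0.39 of SMAD5, as the choice by likeness entails.

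Genes that act on SMAD proteins outside the promoter were counted next. Of 27 tested genes of SMAD turnover and trafficking, 4 were lower (CTDSP1, CTDSP2, CTDSPL and ZFYVE16) and 3 higher (PMEPA1, RNF111 and ZFYVE9), beside 11.3% lower and 11.8% higher among all tested genes, and the median log2 fold change was -0.015. The share called in this list was thus near that of all genes. The 3 CTDSP genes encode small C-terminal domain phosphatases that remove phosphates from SMADs. CTDSP2 fell from 260 ± 4.39 to 177 ± 7.42 CPM (log2 fold change -0.55, adjusted p = 8.55e-10 by edgeR) and CTDSPL from 51.3 ± 0.272 to 32.6 ± 1.08 CPM (-0.65, adjusted p = 9.01e-09). ZFYVE16, which encodes the endosomal protein endofin, had a log2 fold change of -0.43. RNF111 encodes Arkadia, a ubiquitin ligase that removes SKI, SKIL and SMAD7 proteins, and rose from 17.3 ± 0.753 to 22.8 ± 0.134 CPM (0.40, adjusted p = 0.000298). PMEPA1, a membrane protein that sequesters SMAD2 and SMAD3, had a value of 0.33, which lost its call without control sample 3 (0.25) or knockdown sample 1 (0.23). ZFYVE9, the SMAD anchor SARA, had a value of 0.28, which fell under the fold threshold without control sample 3 (0.22) or knockdown sample 3 (0.24). The number higher was thus 1 to 3 over the alternatives.

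Among 30 tested nuclear partners of the SMADs, 7 were higher and 2 lower (KAT2B and RUNX2), beside 11.8% higher and 11.3% lower among all tested genes. The median log2 fold change of this list was 0.047. PRDM16, which interacts with SKI and SMAD3, rose from 5.63 ± 0.497 to 10.2 ± 1.75 CPM (log2 fold change 0.86, adjusted p = 1.27e-05 by edgeR). TGIF2, a SMAD corepressor, rose from 67.2 ± 4.16 to 89.8 ± 4.49 CPM (0.42, adjusted p = 2.92e-06), and FOXO3, a forkhead partner of SMAD3 and SMAD4, rose by a like amount (0.42). RUNX2, a partner of BMP-regulated SMADs, fell from 12.6 ± 0.432 to 7.27 ± 1.26 CPM (-0.79, adjusted p = 9.42e-06). The acetyltransferase gene KAT2B had a value of -0.48 (adjusted p = 0.0434) and lost its call under 7 of the 14 alternatives, with -0.47 without control sample 2, -0.38 without control sample 3, -0.37 without knockdown sample 2 and -0.49 without knockdown sample 3. Of the relatives of SKI, only SKIDA1 and SKOR1 were tested, and SKIDA1 was called higher at 0.54 (adjusted p = 0.0185). The SKIDA1 call was lost without control sample 2 (0.52), control sample 3 (0.46) or knockdown sample 3 (0.40).

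Genes known to respond to SMAD signaling were described in 2 lists, without a test of the lists. Of 11 tested BMP response genes, 5 were lower and 2 higher (ATOH8 and GATA2), beside 11.3% lower and 11.8% higher among all tested genes. The median log2 fold change of this list was -0.26 and ran from -0.54 to -0.22 over the alternatives, with 4 or 5 genes lower. NOG, which encodes the BMP antagonist noggin, fell from 44.3 ± 2.84 to 25.8 ± 3.60 CPM (log2 fold change -0.78, adjusted p = 4.76e-08 by edgeR). ID2, an inhibitor of basic helix-loop-helix factors, fell from 2.98 ± 0.687 to 1.49 ± 0.506 CPM (-0.99, adjusted p = 0.003), and the homeobox gene MSX2 had a value of -0.74. ATOH8 rose from 16.4 ± 1.58 to 23.1 ± 0.821 CPM (0.49, adjusted p = 6.1e-05) and GATA2 had a value of 0.50. Of 25 tested TGF-β and activin response genes, 8 were lower and 4 higher (BHLHE40, FN1, IGFBP3 and TAGLN), with a median of -0.15. The cell cycle inhibitor gene CDKN2B (-0.84) and the matricellular protein gene CTGF (-0.79) were among those lower. Fibronectin (FN1) rose from 1005 ± 14.3 to 1382 ± 98.5 CPM (0.46, adjusted p = 1.73e-08), with TAGLN at 0.75 and BHLHE40 at 0.37. Both lists therefore held genes that moved in either direction while SMAD1, SMAD5 and SMAD6 were lower.

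At the membrane, 5 of 12 tested receptor genes were lower (ACVR1B, ACVR2B, BMPR1A, BMPR2 and TGFBR2) and 1 was higher (ACVR2A). The median log2 fold change of the receptors was -0.27. For comparison with the receptors and the ligands, 11.3% of all tested genes were lower and 11.8% higher. TGFBR2, the type II receptor of TGF-β, fell from 140.3 ± 2.16 to 69.2 ± 0.900 CPM (log2 fold change -1.02, adjusted p = 5.53e-14 by edgeR), and BMPR1A, a type I receptor that phosphorylates SMAD1 and SMAD5, fell from 254 ± 2.86 to 142 ± 3.75 CPM (-0.85, adjusted p = 3.58e-13). ACVR1B, the activin type I receptor, had a value of -0.49, and ACVR2A, an activin type II receptor, had a value of 0.33. Of 13 tested ligand genes, 4 were higher (BMP4, GDF11, MSTN and TGFB3) and 0 lower, with a median of 0.23 that ran from -0.062 to 0.28 over the alternatives. The count higher was 3 or 4 over the alternatives. The values were 0.41 for GDF11, 0.35 for TGFB3 and 0.34 for MSTN, the last of which encodes myostatin and rose from 1398 ± 105 to 1774 ± 187 CPM (adjusted p = 4.69e-05).

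**Figure D4:**
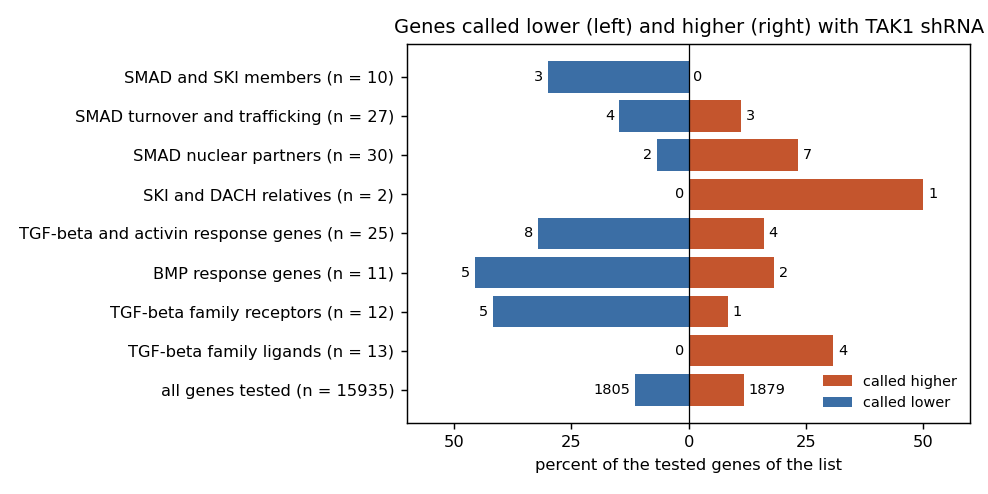
Share of the tested genes of each list called lower (left, blue) or higher (right, orange) in TAK1 knockdown cells, as percent on both sides of 0, with the number of genes at each bar. The 10 SMAD and SKI genes show 3 lower and 0 higher, the receptors 5 lower and 1 higher of 12 and the ligands 4 higher of 13, beside 1805 lower and 1879 higher of 15935 genes.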

How the data were processed

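RNA of 3 control and 3 TAK1 knockdown RD samples was enriched for poly(A) mRNA and sequenced in paired ends on an Illumina instrument. The authors deposited read counts per gene without normalization. CASAVA and alignment with STAR to GRCh38 are named in the submitters' processing notes; the counting program and use of strand are not given in the sources used here. Samples were grouped by their labels. Counts were filtered and normalized (trimmed mean of M-values) and tested with edgeR 4.0.16 in R 4.3.3 over 15935 genes, which held at least 99.9% of counts. CPM uses the normalized library size. The common biological coefficient of variation was 5.67%. DESeq2 1.42.0, limma 3.58.1 (voom), other normalizations, filters, fold thresholds (0.5 or none), a replicate block and leaving out each sample were alternatives. The edgeR fit with and without a replicate block and the DESeq2 and voom fits were tested on simulated data, and the other steps were not.

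Gene positions and lengths came from GENCODE 44, and promoters from RefSeq. Ratios were compared by exact permutation (SciPy 1.17.1). The 10 genes and the lists were chosen with earlier results of these data known, so list counts are descriptions. Named genes are all 10 members, MAP3K7, up to 3 called genes per list and direction with the largest change and at least 1 CPM, and the 3 profiles nearest to the called member with the lowest adjusted p. Genes shown only in counts were named after their values were seen, and some genes of the lists are not reported here by name. Coding length was added as an alternative after seeing the data.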

Additional observations from a re-analysis of the deposited data

How the results depend on the processing

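SMAD1, SMAD5 and SMAD6 stayed below 0 and past both thresholds under 14 refits, with log2 fold changes of -0.32 to -0.26, -0.43 to -0.34 and -0.64 to -0.52 and adjusted p-values up to 0.00287, 0.000141 and 0.000118. A fold threshold of 0.5 left 1 member lower, with 735 genes higher and 680 lower among all tested. Without a fold threshold 4 members were lower, with 2569 genes higher and 2734 lower. DESeq2 called 1680 genes higher and 1809 lower, and voom 1818 and 1806. With a replicate block, 1942 genes were higher and 1848 lower, and 3 members were lower, while the adjusted p of SMAD4 became 0.0407. The labels do not say whether same-numbered samples are paired. Deviations of same-numbered samples correlated at 0.162, 0.0836 and 0.0577 over 13477 genes. Different-numbered samples were not compared in this way, so these values cannot decide whether the samples are paired. Leaving out single samples turned the sign of values that had not passed the test: SMAD9 ran from -0.29 to 0.20 (positive without control sample 1), SKI from -0.018 to 0.089 (negative without control sample 3 or, at -0.012, knockdown sample 1), SKIL from -0.062 (without knockdown sample 3; -0.0095 without control sample 2) to 0.054, and the SKIL to SKI ratio from -0.087 to 0.062 (positive without knockdown sample 1 or, at 0.047, control sample 3). The cause was not tested. Depth limits SMAD9 and SMAD7, whose counts ran from 29 to 169 per sample.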
